A study of Mus musculus with 12 samples.

Results

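The Fc gamma receptor genes of the mouse comprise the activating receptors Fcgr1, Fcgr3 and Fcgr4, the inhibitory receptor Fcgr2b, the signalling chain Fcer1g that the activating receptors share, and Fcgrt, the neonatal Fc receptor. They were taken by symbol from a table of liver gene expression, where all 6 had a row among 19852 genes. All 6 passed the filter on low values, as 6 of 10568 genes tested. All 6 would also have passed on WT livers alone, since Fcgr1, the lowest of them, reached the filter value of 0.5 in 4 WT livers.

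Livers came from C57BL/6 mice aged 20 weeks, in 4 groups of 3: female ARE-Del mice, their female WT littermates, male ARE-Del mice and their male WT littermates. ARE-Del mice carry a germline deletion of the AU-rich element that destabilizes the interferon gamma message, so that the cytokine is made chronically, in every cell type that transcribes the gene. The labels' genotype field sets ARE-Del apart from WT, whereas the extraction text describes every mouse as ARE-Del-/-, so the labels leave the zygosity of the deletion unclear. Each library was RNA-seq made from total liver RNA, with levels given as RPKM, reads per length of transcript and per library total, a level that can be compared between genes. Nothing in the labels says that the 3 samples of a group were separate animals, so p-values measure the spread between these samples.

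Fc gamma receptors bind the constant part of IgG. The activating receptors signal through the ITAM of the Fc receptor gamma chain, Fcer1g, which recruits the kinase Syk and sets off phagocytosis and cytokine release. Fcgr2b carries an ITIM, recruits the lipid phosphatase encoded by Inpp5d and dampens the same signals. In liver, Kupffer cells and recruited monocytes carry activating receptors, while sinusoidal endothelial cells carry most of the Fcgr2b and use it to clear small immune complexes. Fcgrt pairs with beta-2-microglobulin and returns IgG and albumin from endosomes to the blood.

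The libraries summed to between 173476 and 208647 RPKM, and their relative depth, read from the steps between low values, spanned 0.904 to 1.46 times that of female WT 1. Totals of reads per library were not used here. Ifng itself was low in every library, at 0.208, 0.0898 and 0.238 RPKM in female ARE-Del livers against 0.0208, 0.0110 and 0.00957 RPKM in female WT livers. It stood at 0.0978, 0.123 and 0.0742 RPKM in male ARE-Del livers against 0.0382, 0 and 0 RPKM in male WT livers. The library labelled female ARE-Del 2 stood apart, with 0.0456 RPKM of Xist against 33.0 to 45.6 RPKM in the other female libraries, and with Ddx3y at 0 as in every female library. The changes of the 6 genes are also given without it, whereas counts over lists of other genes use all libraries. Reads of 50 bases cannot always tell Fcgr3 from Fcgr2b: 166 stretches of that length, 10.2% of those in Fcgr3 and 4.48% of those in Fcgr2b, are shared, so their split of reads is uncertain. No other pair among the 6 genes shares such a stretch.

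The activating receptors and their signalling chain were higher in ARE-Del livers of both sexes, and the inhibitory receptor was not. Fcgr4, Fcgr3, Fcgr1 and Fcer1g passed the test in females and again in males, at 10.6, 4.51, 5.89 and 5.27 times the mean RPKM of WT livers in females and 6.43, 3.79, 3.45 and 3.51 times in males. Fcgr2b stood at 0.755 times WT in females and 1.02 times in males, and Fcgrt at 0.932 times in females and 1.03 times in males, and neither passed. The share of all tested genes called higher was 25.8% in females and 19.5% in males, so 4 of 6 lies above the background in each sex. For the same 4 genes every ARE-Del liver lay above every WT liver of its sex, as it did for 34.9% of tested genes in females and 36.1% in males. Changes below are on the log2(RPKM + 1) scale with limma's standard error, and adjusted p-values are limma's, by Benjamini-Hochberg over 10568 genes with a threshold of 0.05. That scale understates the fold of low genes such as Fcgr1. A rise in whole liver cannot tell more cells of a type from more RNA per cell.

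**Figure D1:**
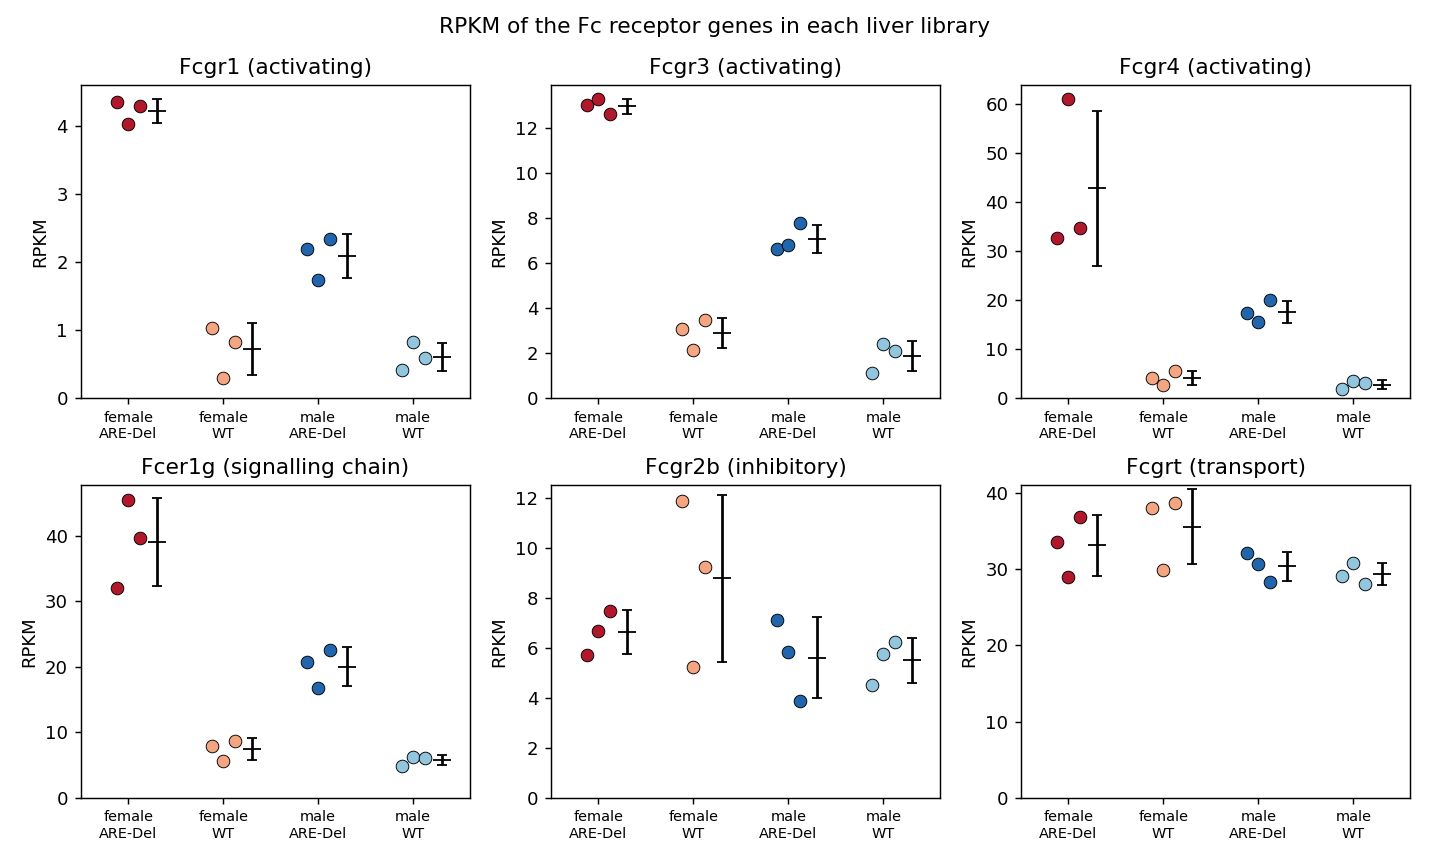
RPKM of the 6 Fc receptor genes in every liver, 1 panel a gene; dots are libraries and bars are group means ± SD (n = 3). In Fcgr1, Fcgr3, Fcgr4 and Fcer1g every ARE-Del library lies above every WT library of its sex, while the groups overlap in Fcgr2b and Fcgrt.

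Fcgr4, an activating receptor of intermediate affinity found on monocytes, macrophages and neutrophils, changed most. It measured 32.7, 61.0 and 34.7 RPKM in female ARE-Del livers, against 4.05, 2.61 and 5.47 RPKM in female WT livers. In male ARE-Del livers it measured 17.3, 15.6 and 20.0 RPKM, against 1.75, 3.39 and 3.10 RPKM in male WT livers. No ARE-Del liver overlapped a WT liver of either sex, and the 61.0 RPKM came from the library with low Xist. The log2 change was 3.10 ± 0.26 in females (adjusted p = 2.28e-06), rank 20 of all tested genes by change, and 2.34 ± 0.26 in males (adjusted p = 6.37e-05), rank 31. Without the library labelled female ARE-Del 2 the female change was 2.82 ± 0.23 (adjusted p = 6.33e-06).

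Fcgr3, the low-affinity activating receptor of macrophages, NK cells and mast cells, measured 13.02, 13.3 and 12.6 RPKM in female ARE-Del livers, against 3.05, 2.13 and 3.45 RPKM in female WT livers. It measured 6.63, 6.78 and 7.76 RPKM in male ARE-Del livers, against 1.11, 2.39 and 2.09 RPKM in male WT livers. The female ARE-Del livers lay within 1 RPKM of each other and far above all others. The log2 change was 1.86 ± 0.16 in females (adjusted p = 3.11e-06) and 1.52 ± 0.16 in males (adjusted p = 4.95e-05). The female change was 1.85 with female ARE-Del 2 left out.

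Fcgr1, the high-affinity receptor that can hold monomeric IgG, was the lowest of the 6 genes in every group. It measured 4.36, 4.03 and 4.30 RPKM in female ARE-Del livers, against 1.04, 0.297 and 0.819 RPKM in female WT livers. It measured 2.19, 1.73 and 2.35 RPKM in male ARE-Del livers, against 0.406, 0.818 and 0.594 RPKM in male WT livers. Both sexes separated fully. The log2 change was 1.63 ± 0.15 in females (adjusted p = 3.95e-06) and 0.95 ± 0.15 in males (adjusted p = 6.72e-04), and 1.66 in females without the library labelled female ARE-Del 2.

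Fcer1g, the ITAM chain that Fcgr1, Fcgr3 and Fcgr4 need at the cell surface, measured 32.0, 45.4 and 39.6 RPKM in female ARE-Del livers, against 7.94, 5.55 and 8.71 RPKM in female WT livers. In male ARE-Del livers it measured 20.7, 16.8 and 22.5 RPKM, against 4.83, 6.27 and 6.00 RPKM in male WT livers. Again no ARE-Del liver reached down to a WT liver of its sex. The log2 change was 2.26 ± 0.17 in females (adjusted p = 1.01e-06) and 1.64 ± 0.17 in males (adjusted p = 3.45e-05), with 2.14 in females without the library labelled female ARE-Del 2.

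Fcgr2b, the inhibitory receptor, measured 5.72, 6.68 and 7.47 RPKM in female ARE-Del livers, against 11.9, 5.24 and 9.23 RPKM in female WT livers. It measured 7.11, 5.83 and 3.89 RPKM in male ARE-Del livers, against 4.51, 5.76 and 6.25 RPKM in male WT livers. The groups overlapped in both sexes, and the female WT livers held both the highest value and one of the lower values. The log2 change was -0.30 ± 0.24 in females (95% interval -0.82 to 0.22, adjusted p = 0.364) and 0.00 ± 0.24 in males (95% interval -0.52 to 0.52, adjusted p = 0.998). A single library decided the female call: without female WT 2, the lowest of the female WT livers, Fcgr2b fell by 0.60 ± 0.20 on the log2 scale (adjusted p = 0.0452). With female ARE-Del 2 left out instead, the female change was -0.31 (adjusted p = 0.432).

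Fcgrt measured 33.6, 28.9 and 36.9 RPKM in female ARE-Del livers, against 38.0, 29.9 and 38.8 RPKM in female WT livers. It measured 32.1, 30.7 and 28.3 RPKM in male ARE-Del livers, against 29.1, 30.9 and 28.1 RPKM in male WT livers. The log2 change was -0.10 ± 0.11 in females (95% interval -0.34 to 0.15, adjusted p = 0.546) and 0.05 ± 0.11 in males (95% interval -0.20 to 0.29, adjusted p = 0.797). Under median-of-ratios scaling the female change was -0.25 ± 0.08 and passed (adjusted p = 0.0372), and with female ARE-Del 2 left out it was -0.01 (adjusted p = 0.978). B2m, which encodes the partner chain of FcRn, rose by 0.74 ± 0.11 in females (adjusted p = 2.86e-04) and 1.03 ± 0.11 in males (adjusted p = 5.65e-05). Alb, a protein that FcRn carries, did not pass, at 0.30 (adjusted p = 0.107) in females and 0.26 (adjusted p = 0.181) in males.

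**Figure D2:**
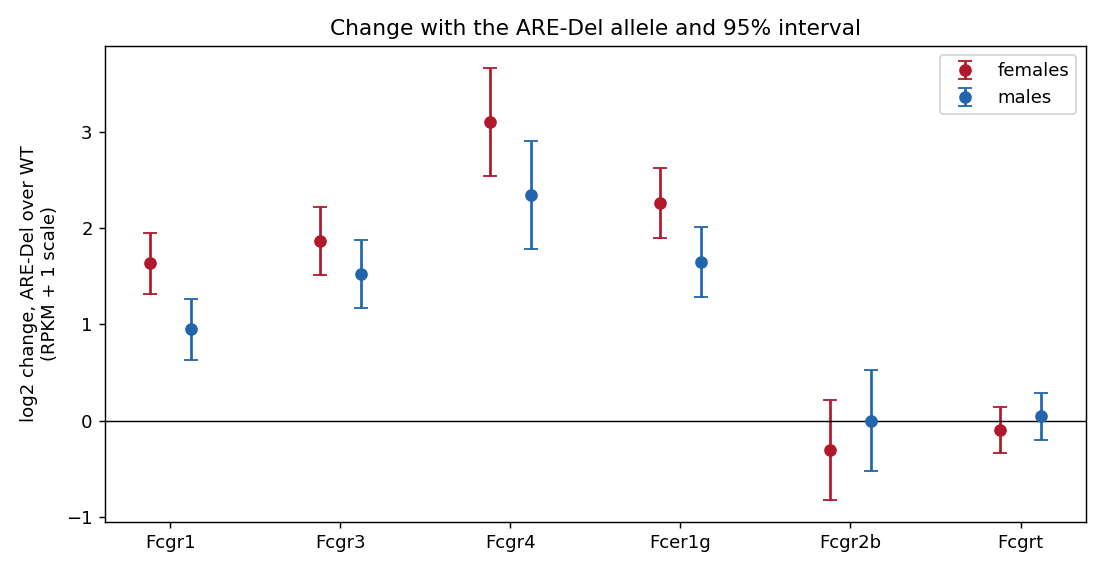
Log2 change with the ARE-Del allele, ARE-Del over WT on the RPKM + 1 scale, for each Fc receptor gene in females and males; dots are limma estimates and bars 95% intervals. The intervals of Fcgr1, Fcgr3, Fcgr4 and Fcer1g lie above 0 in both sexes, and those of Fcgr2b and Fcgrt include 0.

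The split between activating and inhibitory receptors was also tested within each library, as the ratio of each gene to Fcgr2b. The summed RPKM of Fcgr1, Fcgr3 and Fcgr4 was 8.75, 11.7 and 6.92 times that of Fcgr2b in female ARE-Del livers, against 0.686, 0.961 and 1.05 times in female WT livers. In male ARE-Del livers the sum was 3.67, 4.14 and 7.76 times that of Fcgr2b, against 0.723, 1.15 and 0.926 times in male WT livers. Activating and inhibitory message were thus near parity in WT livers of both sexes, and every ARE-Del liver held several times more activating message. The male value of 7.76 came from male ARE-Del 3, which had the lowest Fcgr2b of all libraries.

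Relative to Fcgr2b, Fcgr4 was 13.4 times its WT ratio in females and 6.67 times in males. Fcgr1 was at 8.44 times in females and 3.57 times in males, Fcer1g at 6.70 times in females and 3.51 times in males, and Fcgr3 at 5.80 times in females and 3.99 times in males. The female Fcgr4 value includes female ARE-Del 2, where Fcgr4 was 9.12 times Fcgr2b, against 5.71 and 4.65 times in female ARE-Del 1 and 3. An exact permutation test of the log2 ratio, two-sided and permuting ARE-Del and WT within each sex, gave p = 0.005 for each of these 4 genes, the smallest p that its 400 arrangements allow, and 0.00625 adjusted over 5 ratios. Fcgrt to Fcgr2b, at 1.18 times in females and 1.04 times in males, gave an exact p of 0.435. Within 1 sex, an exact permutation of 3 against 3 livers cannot go below p = 0.1.

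A limma fit of the same ratio over all genes, log2((RPKM + 1)/(Fcgr2b RPKM + 1)), allowed a test in each sex. All ratios in that fit share the Fcgr2b values of the same 12 libraries, and its moderated p-values are too small, so variances of each gene alone were used beside them. In females the 4 genes passed both ways, with adjusted p from limma of 6.08e-28 for Fcgr4 and 3.21e-09 for Fcgr1, and with unmoderated adjusted p of 0.00231 for Fcgr4, 0.00236 for Fcer1g, 0.00417 for Fcgr1 and 0.00478 for Fcgr3. Of all genes, 10.3% were called higher relative to Fcgr2b in females with moderated variances and 4.85% with unmoderated ones. In males the 4 passed with moderated variances, where the background was 2.47%. With unmoderated variances and a background of 0.71%, Fcgr4 (adjusted p = 0.0275) and Fcer1g (0.0371) passed, while Fcgr3 (0.0541) and Fcgr1 (0.172) did not. The male Fcgr1 ratio, a log2 change of 0.95 ± 0.29, was close to the threshold even with moderated variances (adjusted p = 0.0469). It missed the threshold in 12 of 21 alternatives, among them leaving out female ARE-Del 2 (adjusted p = 0.0926) and, at a change of 0.68, male ARE-Del 3 (adjusted p = 0.680).

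**Figure D3:**
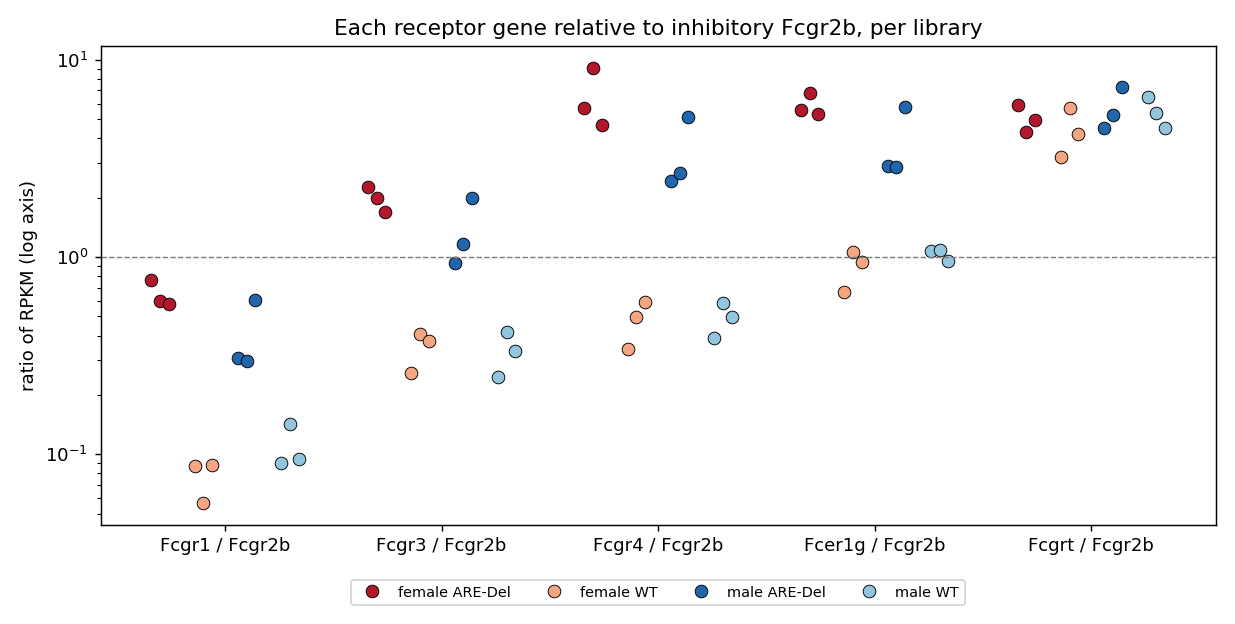
RPKM of each gene divided by the RPKM of inhibitory Fcgr2b in the same liver, on a log axis; each dot is a library and the dashed line marks equal RPKM. Fcgr1, Fcgr3, Fcgr4 and Fcer1g ratios of ARE-Del livers all lie above those of WT livers, and Fcgrt ratios overlap.

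The make-up of the activating message also differed. Fcgr4 held 65.3% to 77.9% of the summed RPKM of Fcgr1, Fcgr3 and Fcgr4 in female ARE-Del livers, against 49.8% to 56.1% in female WT livers. Its share was 64.7% to 66.5% in male ARE-Del livers, against 51.3% to 53.6% in male WT livers. The Fcgr3 share was 17.0% to 26.0% in female ARE-Del livers against 35.5% to 42.4% in female WT livers, and 25.4% to 28.1% in male ARE-Del livers against 34.0% to 36.3% in male WT livers. Neither share overlapped between ARE-Del and WT livers of a sex. Fcer1g RPKM was 0.580 to 0.766 times the summed activating receptors in female ARE-Del livers against 0.895 to 1.10 times in female WT livers, and 0.695 to 0.793 times in male ARE-Del livers against 0.951 to 1.48 times in male WT livers. The 77.9%, the 17.0% and the 0.580 all came from female ARE-Del 2, the library with low Xist. In female ARE-Del 1 and 3 the Fcgr4 share was 65.3% and 67.2%, and the Fcgr3 share 26.0% and 24.4%. These shares describe the libraries and carry no test.

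**Figure D4:**
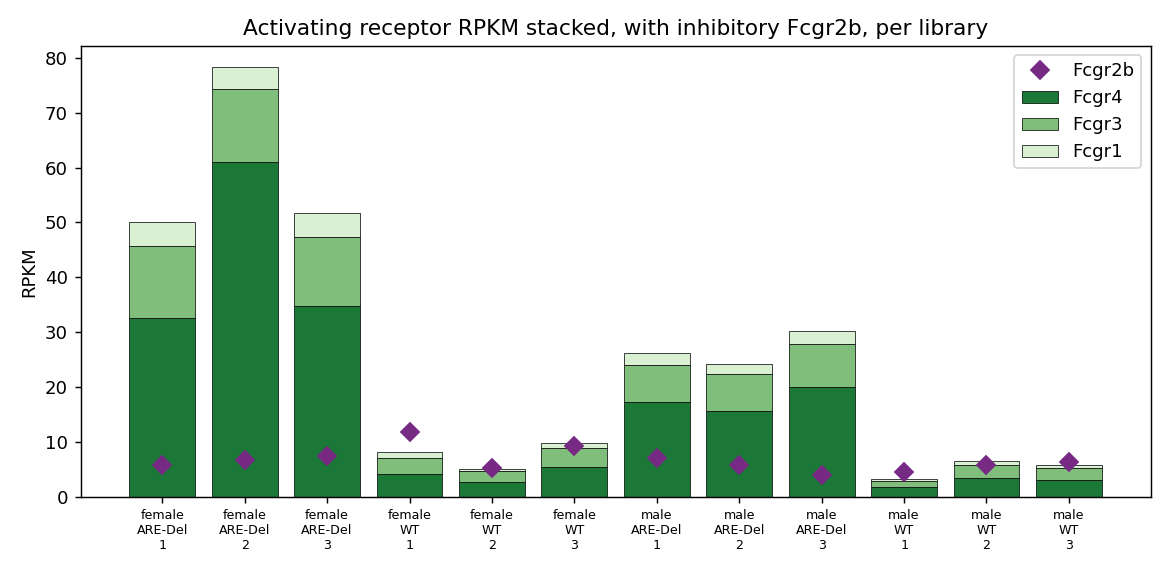
Stacked RPKM of the activating receptors Fcgr4, Fcgr3 and Fcgr1 in each of the 12 livers, with Fcgr2b RPKM as a diamond. The stack reaches 50.04 to 78.3 RPKM in female ARE-Del livers and 24.1 to 30.2 RPKM in male ARE-Del livers, while in WT livers it stays near the Fcgr2b diamond.

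The order of the 6 genes by RPKM changed with the allele. In female ARE-Del livers Fcgr4 had the highest mean, followed by Fcer1g and Fcgrt, whose library ranges overlapped one another, then Fcgr3, Fcgr2b and Fcgr1, each separate from the next. The first place rests on female ARE-Del 2: without it the means were 35.8 RPKM for Fcer1g, 35.2 RPKM for Fcgrt and 33.7 RPKM for Fcgr4. In female WT livers Fcgrt led alone, followed by Fcgr2b and Fcer1g, which overlapped, then Fcgr4 and Fcgr3, which overlapped, and Fcgr1. In male ARE-Del livers Fcgrt led, followed by Fcer1g and Fcgr4, which overlapped, then Fcgr3 and Fcgr2b, which overlapped, and Fcgr1. In male WT livers the order was Fcgrt, then Fcer1g and Fcgr2b, which overlapped, then Fcgr4 and Fcgr3, which overlapped, and Fcgr1. The inhibitory receptor thus stood above each activating receptor by mean in WT livers of both sexes and below Fcgr4 and Fcgr3 by mean in ARE-Del livers of both sexes.

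Female ARE-Del livers carried more activating receptor message than male ARE-Del livers. Fcgr4 was higher by 1.18 ± 0.26 on the log2 scale (adjusted p = 0.0064), Fcer1g by 0.93 ± 0.17 (adjusted p = 0.0020), Fcgr3 by 0.80 ± 0.16 (adjusted p = 0.0042) and Fcgr1 by 0.76 ± 0.15 (adjusted p = 0.0029). Every female ARE-Del liver lay above every male ARE-Del liver for these 4 genes, as for 26.7% of all tested genes, and 16.4% of tested genes were called higher in that comparison. Fcgr2b, at 0.23 (adjusted p = 0.535), and Fcgrt, at 0.12 (adjusted p = 0.501), did not pass. Without the library labelled female ARE-Del 2 the same 4 genes passed, with Fcgr4 at 0.90 (adjusted p = 0.0205).

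Between female and male WT livers none of the 6 genes passed and all overlapped, against a background of 9.76% called in either direction, 18.9% fully higher in females and 9.58% fully lower. The differences were 0.54 for Fcgr2b (adjusted p = 0.185), 0.45 for Fcgr3 (0.105), 0.42 for Fcgr4 (0.335), 0.31 for Fcer1g (0.258), 0.26 for Fcgrt (0.166) and 0.08 for Fcgr1 (0.781). Female WT 2 decided part of this: without it Fcgr2b (0.83, adjusted p = 0.0258), Fcgrt (0.38, 0.0369) and Fcgr3 (0.60, 0.0393) were called higher in female WT livers.

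Whether the allele acted more strongly in females was tested as the difference of the female and male changes, and no gene of the 6 passed, against a background of 0.568% of tested genes. The difference was 0.68 ± 0.21 for Fcgr1 (adjusted p = 0.179), 0.76 ± 0.36 for Fcgr4 (0.459), 0.61 ± 0.23 for Fcer1g (0.317) and 0.35 for Fcgr3 (0.666). All 4 estimates were larger in females. Their 95% intervals, not adjusted for the number of genes, excluded 0 for Fcgr1 (0.23 to 1.13) and Fcer1g (0.10 to 1.12). They included 0 for Fcgr4 (-0.03 to 1.56) and Fcgr3 (-0.15 to 0.84). Since none passed after adjustment over all tested genes, the larger change in females is not shown to differ from that in males. Fcgr2b stood at -0.30 (0.850) and Fcgrt at -0.14 (0.848). With female ARE-Del 2 left out the difference was 0.48 for Fcgr4 (adjusted p = 0.669) and 0.71 for Fcgr1 (0.222).

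The proximal promoters of the activating receptors and their signalling chain, which rose together, are shown beside that of inhibitory Fcgr2b, which did not pass. They are RefSeq sequences of build GRCm38.p6, from 250 bases before to 50 bases after the annotated start, read 5' to 3' on the gene's strand. Capitals mark matches, on either strand, to any of 3 motifs: TTCNNNGAA, the gamma-activated site; GAAA, any pair of bases and GAAA, a core of the interferon-stimulated response element; and GAGGAA, a core of sites for the myeloid factor PU.1, which reads as TTCCTC where it lies on the opposite strand.
Fcgr1 (chr3:96293920-96294219, minus strand): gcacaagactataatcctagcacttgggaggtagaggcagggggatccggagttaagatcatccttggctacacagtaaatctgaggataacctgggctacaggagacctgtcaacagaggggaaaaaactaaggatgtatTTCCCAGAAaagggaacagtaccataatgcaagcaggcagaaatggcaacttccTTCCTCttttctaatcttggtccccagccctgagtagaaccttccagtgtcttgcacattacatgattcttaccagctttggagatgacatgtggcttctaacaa
Fcgr4 (chr1:171018676-171018975, plus strand): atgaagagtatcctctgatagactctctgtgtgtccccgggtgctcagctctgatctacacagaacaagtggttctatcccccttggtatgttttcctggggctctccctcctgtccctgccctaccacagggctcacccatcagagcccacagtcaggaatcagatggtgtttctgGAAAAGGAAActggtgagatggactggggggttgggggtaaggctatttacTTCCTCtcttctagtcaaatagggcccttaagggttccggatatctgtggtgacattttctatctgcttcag
Fcgr3 (chr1:171059354-171059653, minus strand): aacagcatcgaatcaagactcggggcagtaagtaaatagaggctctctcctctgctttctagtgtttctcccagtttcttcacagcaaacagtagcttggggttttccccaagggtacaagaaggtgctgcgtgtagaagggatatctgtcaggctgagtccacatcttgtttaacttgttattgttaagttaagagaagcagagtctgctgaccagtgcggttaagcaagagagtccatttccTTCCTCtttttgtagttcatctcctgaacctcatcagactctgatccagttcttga
Fcer1g (chr1:171234300-171234599, minus strand): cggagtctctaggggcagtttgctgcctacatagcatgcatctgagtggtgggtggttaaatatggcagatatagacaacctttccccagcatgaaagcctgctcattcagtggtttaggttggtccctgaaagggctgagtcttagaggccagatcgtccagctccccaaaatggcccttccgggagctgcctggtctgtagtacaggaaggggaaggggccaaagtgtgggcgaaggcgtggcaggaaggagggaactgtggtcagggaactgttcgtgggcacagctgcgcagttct
Fcgr2b (chr1:170976022-170976321, minus strand): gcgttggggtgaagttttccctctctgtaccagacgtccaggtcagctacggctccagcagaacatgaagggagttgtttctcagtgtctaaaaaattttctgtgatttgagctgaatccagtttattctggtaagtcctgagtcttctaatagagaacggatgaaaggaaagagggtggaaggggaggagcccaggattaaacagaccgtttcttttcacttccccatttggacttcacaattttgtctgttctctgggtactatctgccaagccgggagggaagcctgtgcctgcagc

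The Fcgr1 promoter held TTCCCAGAA, a match to the gamma-activated site that begins 109 bases before the start, and TTCCTC at 55 bases before it. The Fcgr4 promoter held GAAAAGGAAA, a match to the interferon-stimulated core, 73 bases before the start, and TTCCTC 22 bases before it. The Fcgr3 promoter held TTCCTC 6 bases before the start shown, and 15 bases before the other start that RefSeq gives. The windows of Fcer1g, which rose, of Fcgr2b, and of Fcgrt (not shown), held none of the 3. Of 27025 promoters of the same length, 8.47% held the gamma-activated site, 3.49% the interferon-stimulated core and 28.3% the PU.1 core. A match is a run of letters, not a site shown to be bound.

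Transcription factors linked to Fc receptor promoters changed too. Sfpi1, which encodes PU.1, rose by 1.63 ± 0.19 in females (adjusted p = 4.12e-05) and 1.23 ± 0.19 in males (adjusted p = 8.18e-04). Irf1 rose by 1.39 in females and 1.59 in males. Irf8 rose by 1.43 in females and 0.95 in males, but reached 0.5 RPKM in 1 WT liver and so passed the filter through ARE-Del livers. Cebpa, a factor of hepatocytes and myeloid cells, fell by 0.35 ± 0.11 in females (adjusted p = 0.0328) and stood at -0.33 in males (adjusted p = 0.0578).

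Many genes of activating signalling rose. Of 32 listed, 28 were tested, and 22 rose in females and 19 in males, but 11 of the 28 passed the filter on low values only with the help of ARE-Del livers. Of the 17 that passed on WT livers alone 11 rose in females and 9 in males, where 25.8% and 19.5% of all tested genes rose. Their median was 0.40 in females and 0.22 in males, against 0.09 and 0.10 over all tested genes. Rac2, a GTPase of the phagocyte oxidase and cytoskeleton, rose by 1.80 ± 0.15 in females and 1.25 ± 0.15 in males. Lcp2, an adaptor downstream of Syk, rose by 1.76 ± 0.13 in females and 1.09 ± 0.13 in males. Syk, the kinase that docks on the ITAM, measured 1.59, 2.24 and 2.11 RPKM in female ARE-Del livers against 0.492, 0.273 and 0.536 RPKM in female WT livers, a log2 change of 1.05 ± 0.10 (adjusted p = 8.99e-06). Its male change was 0.52 ± 0.10 (adjusted p = 0.00416). Syk reached 0.5 RPKM in 1 WT liver and so passed the filter through ARE-Del livers.

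Some of the phosphatases and adaptors of inhibitory signalling rose. All 12 listed were tested, and 9 rose in females and 7 in males, but 6 of them passed the filter only with the help of ARE-Del livers. Of the 6 that passed on WT livers alone, 4 rose in females and 2 in males, with medians of 0.34 in females and 0.21 in males, beside the 25.8% and 19.5% of all tested genes that rose. Inpp5d, whose lipid phosphatase SHIP docks on the ITIM of Fcgr2b, measured 1.91, 2.02 and 2.24 RPKM in female ARE-Del livers against 0.619, 0.358 and 0.543 RPKM in female WT livers. It measured 1.15, 0.876 and 0.959 RPKM in male ARE-Del livers against 0.229, 0.281 and 0.295 RPKM in male WT livers. The log2 changes were 1.02 ± 0.07 in females (adjusted p = 9.80e-07) and 0.65 ± 0.07 in males (adjusted p = 8.67e-05), and no ARE-Del liver overlapped a WT liver of its sex. Inpp5d reached 0.5 RPKM in 2 WT livers and so passed the filter through ARE-Del livers, as did Dok2. Ptpn6, the tyrosine phosphatase SHP-1, rose by 1.29 ± 0.10 in females and 0.79 ± 0.10 in males, and Dok2, an adaptor that restrains signalling, by 1.23 in females and 0.82 in males.

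Most other inhibitory receptors rose. Of 13 tested, 12 rose in females and 12 in males. Of the 9 that passed the filter on WT livers alone 8 rose in each sex, with medians of 1.61 in females and 0.93 in males. Over all tested genes 25.8% rose in females and 19.5% in males, with medians of 0.09 and 0.10. The difference of these receptors from Fcgr2b was not tested. Sirpa, a receptor of macrophages that binds CD47, rose by 2.41 ± 0.19 in females and 1.72 ± 0.19 in males. Lilrb4 rose by 1.93 in females and 1.14 in males, and Siglece, a sialic acid receptor of myeloid cells, by 1.89 in females and 1.26 in males. The receptor that did not pass was Ceacam1 in females (-0.01, adjusted p = 0.924) and Pecam1 in males (0.53, adjusted p = 0.0756).

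Few of the other Fc receptors passed the filter on low values, and part of the list of immunoglobulin chains and pentraxins rose. Of 13 other Fc and immunoglobulin receptors with a row, 2 passed that filter: Trim21, the cytosolic antibody receptor, rose by 0.72 ± 0.10 in females and 0.78 ± 0.10 in males, and Pigr, which carries IgA into bile, rose by 0.65 ± 0.09 in males and stood at 0.22 (adjusted p = 0.0839) in females. Of 10 ITAM adaptors and receptors that pair with them, 2 were tested, Clec4d through ARE-Del livers, since it reached 0.5 RPKM in 2 WT livers, and both rose in both sexes: Tyrobp, the DAP12 chain, by 2.29 ± 0.21 in females and 1.72 ± 0.21 in males, and Clec4d, a C-type lectin that pairs with Fcer1g, by 1.64 in females and 1.18 in males. Among 4 tested immunoglobulin chains and pentraxins, 3 rose in females and 2 in males, beside 25.8% and 19.5% of all tested genes. With no filter on low values 0 passed in males. No IgG heavy chain was tested. Ighg1 missed the filter, with means of 0.0246 RPKM in female ARE-Del livers against 0.0293 RPKM in female WT livers. Its means were 0.171 RPKM in male ARE-Del livers and 0.177 RPKM in male WT livers. Ighg2b, Ighg2c and Ighg3 had no matching row. Igk-C, the kappa constant region, rose by 1.35 ± 0.27 in females (adjusted p = 0.00208) and 1.07 ± 0.27 in males (adjusted p = 0.0145), and Igj, the joining chain, by 1.11 in females and 1.07 in males. Apcs, a pentraxin that also binds Fc gamma receptors, rose by 0.91 ± 0.32 in females (adjusted p = 0.0466) and stood at 0.40 in males (adjusted p = 0.399).

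**Figure D5:**
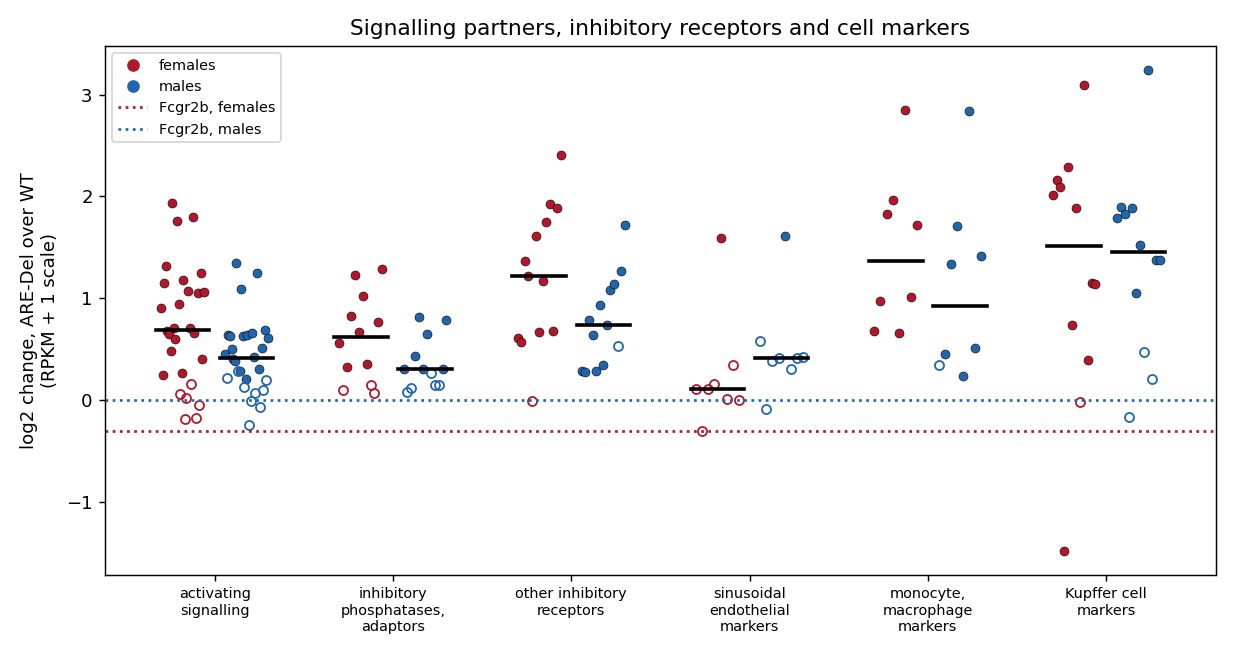
Log2 change, ARE-Del over WT on the RPKM + 1 scale, of every tested gene in 6 lists, females left and males right within each list; filled dots passed at adjusted p 0.05, open dots did not, bars are medians over the tested genes, some of which passed the filter only through ARE-Del livers, and dotted lines mark Fcgr2b. Inhibitory receptors, phosphatases and macrophage markers lie mostly above the Fcgr2b lines, as do most of all tested genes. By change, Fcgr2b ranked 10029 of 10568 tested genes in females and 7949 in males. The sinusoidal endothelial medians lie at 0.11 in females and 0.41 in males.

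Markers of the cells that carry these receptors moved in the same libraries. The 12 Kupffer cell markers summed to between 610 and 726 RPKM in female ARE-Del livers against 141 to 229 RPKM in female WT livers, and to between 346 and 417 RPKM in male ARE-Del livers against 103 to 157 RPKM in male WT livers. Of these 12, 10 rose and 1 (Cd163) fell in females, and 9 rose in males. Of all tested genes 25.8% rose in females and 19.5% in males, and the counts of markers that follow have the same background. Markers weigh unequally in the Kupffer cell sum. Cd5l alone had a mean of 202 RPKM in female ARE-Del livers and 41.8 RPKM in female WT livers. In the same groups Clec4f had means of 55.1 and 33.2 RPKM, and Folr2 of 5.75 and 5.90 RPKM. The monocyte and macrophage markers with a row, 10 in all, summed to between 157 and 175 RPKM in female ARE-Del livers against 21.3 to 34.7 RPKM in female WT livers, and to between 96.4 and 121 RPKM in male ARE-Del livers against 14.5 to 27.4 RPKM in male WT livers. Of the 8 tested, 8 rose in females and 7 in males, but 3 of them passed the filter only through ARE-Del livers, and of the other 5 all 5 rose in each sex. Neutrophil markers summed to between 4.92 and 13.3 RPKM in female ARE-Del livers against 1.79 to 5.95 RPKM in female WT livers, and to between 2.47 and 5.85 RPKM in male ARE-Del livers against 1.37 to 3.59 RPKM in male WT livers. Of the tested markers of NK cells 3 of 3 rose in each sex, of T cells 3 of 3 rose in females and 2 of 3 in males, of dendritic cells 2 of 2 and of B cells 1 of 2 rose in each sex, and of mast cells and basophils 0 of 1 changed. All of these lymphoid, dendritic and mast cell markers reached the filter only with the help of ARE-Del livers. No marker on any of these lists was at 0 in every library, and the part of cell number in the change of the receptors was not tested.

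Of 8 markers of sinusoidal endothelium, the main site of Fcgr2b in liver, 1 passed the test in each sex. Over all tested genes 25.8% were called higher in females and 19.5% in males. The marker that passed was Lyve1, which rose by 1.59 ± 0.23 in females and 1.61 ± 0.23 in males. The median change of the 8 was 0.11 in females and 0.41 in males, against 0.09 and 0.10 over all tested genes. The 8 summed to 37.1, 52.3 and 61.3 RPKM in female ARE-Del livers against 57.7, 27.6 and 45.3 RPKM in female WT livers, and to 52.2, 46.8 and 31.8 RPKM in male ARE-Del livers against 24.03, 29.9 and 32.2 RPKM in male WT livers. The library with the highest sum in a group also had the highest Fcgr2b, and likewise for the lowest, in all 4 groups, with and without Lyve1. Female WT 2, whose removal brought the female Fcgr2b change past the threshold, had the lowest endothelial sum of its group. This low was not particular to endothelium. Female WT 2 also had the lowest Kupffer cell sum of its group, at 141 RPKM, and the lowest monocyte and macrophage sum, at 21.3 RPKM. Every Fc receptor gene was lowest there too, whereas the neutrophil and hepatocyte sums were not. Of 6 hepatocyte markers, 2 were called higher in females and 4 in males, beside 25.8% and 19.5% of all tested genes.

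The genes whose profile over the 12 libraries came closest to each Fc receptor gene were found by the root mean square difference of log2(RPKM + 1), each gene centred on its own mean. Nearest to Fcgr4, whose own SD over the libraries was 1.53, were Ctss, the lysosomal protease cathepsin S (difference 0.34), and Ear2, a ribonuclease with near-identical relatives whose counts are uncertain (0.34). Fcer1g (SD 1.10) was nearest to Cd52, a surface glycoprotein of leukocytes (0.13), and Il18bp, the soluble inhibitor of IL-18 (0.13). Fcgr3 (SD 0.97) was nearest to Klra2, of the lectin-like Ly49 family, whose members resemble one another (0.10), and Slfn2, a Schlafen gene (0.11). Fcgr1 (SD 0.75) was nearest to Ly9, a SLAM-family receptor of leukocytes (0.09), and Igsf6 (0.11). Fcgr2b (SD 0.38) was nearest to Eltd1, an adhesion receptor of endothelial cells (0.10), and Aqp1, a water channel of endothelium and bile duct (0.13). Fcgrt (SD 0.16) was nearest to Mxd4 (0.05) and Isy1 (0.08).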

How the data were processed

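Total liver RNA was sequenced in 12 libraries, 3 a group. The authors deposited 1 table of RPKM values for all libraries, aligned to mm9, with Trimmomatic 0.30, TopHat2 2.0.8, Partek and GenomeStudio 6.6 named per the submitters' processing notes; neither settings nor read totals are stated in the sources read. RPKM scales each library to its own total, so a few abundant genes can move all others. Genes reaching 0.5 RPKM in at least 3 libraries were tested (10568 of 19852) with limma 3.58.1 in R 4.3.3 on log2(RPKM + 1), with 1 mean for each of 4 groups and a variance trend. Over all tested genes the median change was 0.09 in females and 0.10 in males, and relative to it Fcgr4 stood at 3.01 and 2.24 and Fcgr2b at -0.39 and -0.10. Ratios to Fcgr2b were tested by exact permutation within sex and by limma. That unmoderated variances were also used was decided after seeing the data. The receptors, gene lists and tests were chosen with earlier results of these data known. Of 180 list entries, 161 matched by symbol, 6 by an older symbol and 4 by a synonym. Named genes are the 6 receptors, the 2 largest called changes of each list in each sex, members named by their role, and the 2 nearest profiles of each receptor; some that the rule names are not reported here. Promoters are from RefSeq, build GRCm38.p6, and were matched by symbol for 6 of 6 genes. Other pseudocounts, filters, scalings, a replicate block and leaving out each library were tried. The limma fit of log2(RPKM + 1) was tested on simulated data for the female change only, and the fits of ratios to Fcgr2b were not simulated.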

Additional observations from a re-analysis of the deposited data

How the results depend on the processing

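Fcgr1, Fcgr3, Fcgr4 and Fcer1g passed in females, in males and between female and male ARE-Del livers under every alternative run, and no called result changed sign. The members called were 4 to 5 in females, 4 in males, 0 for the difference of the changes, 4 between the sexes of ARE-Del mice and 0 to 3 between those of WT mice. The exact tests of the 4 ratios to Fcgr2b stayed at their smallest possible p, which says nothing of stability, while the mean log2 difference ranged from 1.44 to 2.56 for Fcgr1, 1.84 to 2.38 for Fcgr3, 2.87 to 3.35 for Fcgr4 and 2.10 to 2.36 for Fcer1g. The male Fcgr1 to Fcgr2b ratio missed the threshold with no filter on low values (0.95, adjusted p = 0.0964), the replicate block (0.95, adjusted p = 0.144) and unmoderated variances (0.95, adjusted p = 0.172), and leaving out 1 library gave 0.68 to 1.08 (adjusted p 0.00172 to 0.680). The male Fcgr3 to Fcgr2b ratio missed it with unmoderated variances (1.52, adjusted p = 0.0541). Genes called for the difference of the changes numbered 60, against 14 with a pseudocount of 0.1, 30 with no filter, 0 with a filter of RPKM 1 in 6 libraries, 106 with quantile normalization, 39 without the variance trend, 32 with the replicate block and 0 to 74 without 1 library; the cause was not tested. Without 1 library the genes called ranged from 1259 to 2481 in males (2272 in the full fit), 1367 to 2494 between female and male ARE-Del livers (2370) and 525 to 1116 between female and male WT livers (1031). Scaling moved the balance of calls: the share of calls that were higher was 82.3% in females and 90.5% in males as deposited, 52.3% and 55.7% under median-of-ratios scaling and 39.3% and 44.5% under quantile normalization, where the median of all genes moved by -0.16 and -0.14. Under the filter of RPKM 1 in 6 libraries fewer listed genes were tested, and 12 activating signalling genes and 4 inhibitory phosphatases and adaptors were called in females, 10 and 2 in males. Replicate numbers did not pair the samples: same-numbered deviations correlated at -0.291 to 0.245 over 18 pairs. The replicate block changed no other call among the 6 genes, with 3019 genes called in females and 2024 in males. Depth limits Fcgr1 most, since it was under 1 RPKM in 5 of 6 WT livers.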

Other observations

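Relative to Csf1r, the growth factor receptor of macrophages, Fcgr4 RPKM stood at 122%, 197% and 101% in female ARE-Del livers against 46.6%, 55.2% and 64.8% in female WT livers. It stood at 102%, 107% and 114% in male ARE-Del livers against 56.3%, 58.6% and 70.3% in male WT livers. The groups did not overlap in either sex, and the 197% came from female ARE-Del 2, the library with low Xist. Relative to Csf1r, Fcgr3 and Fcer1g overlapped in both sexes, and Fcgr1 stood above WT in females and overlapped in males. The outcome for Fcer1g depended on the marker. Against Cd68, another marker of macrophages, Fcer1g stood above WT in females, at 1.32 times, and overlapped in males. With Cd68, Fcgr4 stood above WT in both sexes, at 2.70 times in females and 2.26 times in males. Fcgr1 stood above it in females, at 1.61 times, and overlapped in males, and Fcgr3 overlapped in both sexes. Relative to the summed monocyte and macrophage markers, Fcgr4 stood above WT in females, at 1.87 times, and overlapped in males, at 1.19 times. Against the same sum Fcgr3 stood below WT in females, at 0.79 times, and in males, at 0.71 times. Fcgr1 and Fcer1g overlapped in females, at 1.10 and 0.92 times, and stood below WT in males, at 0.64 and 0.62 times. Mpeg1 weighs heavily in that sum. Its mean was 99.4 RPKM in female ARE-Del livers against 13.1 RPKM in female WT livers. In males it was 77.1 RPKM in ARE-Del livers against 10.3 RPKM in WT livers. Against the summed Kupffer cell markers Fcgr1, Fcgr3, Fcgr4 and Fcer1g all stood above WT in females, and Fcgr4 alone did in males. Relative to the summed markers of sinusoidal endothelium, Fcgr2b stood at 15.4%, 12.8% and 12.2% in female ARE-Del livers against 20.5%, 19.0% and 20.4% in female WT livers. It stood at 13.6%, 12.5% and 12.2% in male ARE-Del livers against 18.8%, 19.3% and 19.4% in male WT livers. Left without Lyve1, the endothelial marker that rose, the sum gave 14.2% to 17.4% in female ARE-Del livers against 20.0% to 21.3% in female WT livers, and 14.0% to 15.9% in male ARE-Del livers against 19.9% to 20.2% in male WT livers. These ratios were chosen after their values were seen and carry no test.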
